A study of Mus musculus with 20 samples.

Results

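The libraries described here cover the first 3 days in culture of portal mesenchymal cells of the mouse liver. They are 8 of the 20 libraries of the series: 4 of portal mesenchymal stem cells that were not cultured (PMSC, called fresh below) and 4 of the myofibroblasts derived from them after 3 days (PMSC-MF-3d, called day-3 cells). They were chosen by their titles, without use of a measured value. All came from the liver of C57BL/6 mice, and the labels name no allele, agent or treatment besides culture for either group. Of the other 12 libraries, 4 of the same cells at 7 days are used to show where a gene stood later, and 8 of hepatic stellate cells are not compared. All 20 libraries entered the choice of tested genes, the scaling and the shared estimate of the spread. How the cells were isolated or sorted, the culture medium and the age of the mice are not given in the sources used here. Whether a group's 4 libraries stand for separate animals or separate cultures is not in the labels, so the p-values measure the spread between these samples, which may be technical.

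Portal fibroblasts sheathe the portal vein and bile ducts and build the elastic fibres of that sheath, and after bile duct injury they can turn into myofibroblasts, the contractile cells that lay down scar matrix. A cell that leaves quiescence loses inhibitors of cyclin-dependent kinases, loads the replicative helicase on its DNA under the control of E2F factors, and later reads a set of mitotic genes through CHR and CCAAT elements in their promoters. A myofibroblast is recognised by actin stress fibres with smooth muscle actin, formed under the control of SRF and of the YAP and TEAD factors, and it exchanges growth factors, cytokines and their receptors with the cells around it.

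Summed expected counts were 11810532 to 21438753 in the 4 fresh libraries and 23641579 to 24258856 in the 4 day-3 libraries. Of 24848 genes in the files, 14751 had enough counts to be tested. The fresh libraries varied more among themselves, with a biological coefficient of variation of 28.8% against 10.7% at day 3. On principal components of the 8 libraries, the component that separates the groups held 86.7% of the variance, and the next one, with 4.21%, set fresh replicate 3, the shallowest library, apart. Ribosomal protein genes took 10.7% to 14.2% of all TPM (a transcript level corrected for gene length and library total) in fresh libraries and 16.3% to 17.5% at day 3. Levels below are in CPM, counts over a common library total after TMM scaling, listed in the order of replicates 1 to 4 or given as mean ± SD (n = 4). Changes are log2 fold changes of day 3 against fresh ± standard error, and a gene is said to rise or fall only where edgeR's quasi-likelihood test gave a Benjamini-Hochberg adjusted p under 0.05 over all tested genes.

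In 3 days nearly every listed gene of DNA replication and mitosis rose from a low level in the portal cells, 28 of 30 portal fibroblast markers fell, and chemokine and interferon response genes that were high in the fresh cells fell with them. Of 24 contractile genes 17 rose, as did 19 of 25 genes of the ATF4 programme and serine synthesis and secreted factors such as Timp1, Inhba and Csf1. Most collagens, proteoglycans, complement factors and growth factor receptors fell. Of the 14751 genes, 37.2% rose and 41.1% fell, 78.3% in all, with a median log2 change of -0.07 over all of them. On library totals without TMM that median was 0.41 and 61.7% of the called genes were higher, against 47.5% here, so small falls depend on the scaling. The share that rose over 4-fold was 9.15%. Every count of list members below is to be read against these shares. In bulk RNA, fewer cells of a type and less RNA per cell cannot be told apart, and this holds for each gene below.

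The label of the group was checked on 3 activation markers. Acta2, the smooth muscle actin of stress fibres (chr19:34240336-34255585 of GRCm38.p6, RefSeq), was at 187, 142, 155 and 275 CPM in fresh cells and 3706, 3999, 3419.6 and 3903 CPM at day 3. Mki67, the proliferation antigen Ki-67 (chr7:135689784-135716450), was at 5.12, 15.4, 5.54 and 6.45 CPM and then at 221, 212, 235 and 219.8 CPM. Hmga2, a chromatin protein of embryonic cells (chr10:120361268-120476469), was at 0, 0.0631, 0 and 0.174 CPM and then at 109, 113, 115.3 and 103 CPM. All 3 were higher in each day-3 library than in any fresh library, so these markers do not go against the label. The changes were 4.31 ± 0.21, 4.75 ± 0.27 and 10.52 ± 0.44, with edgeR adjusted p of 5.15e-13, 2.94e-12 and 4.97e-14. The fresh level of Hmga2 rested on a few counts, and without fresh replicate 4 its change was 11.81.

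**Figure D1:**
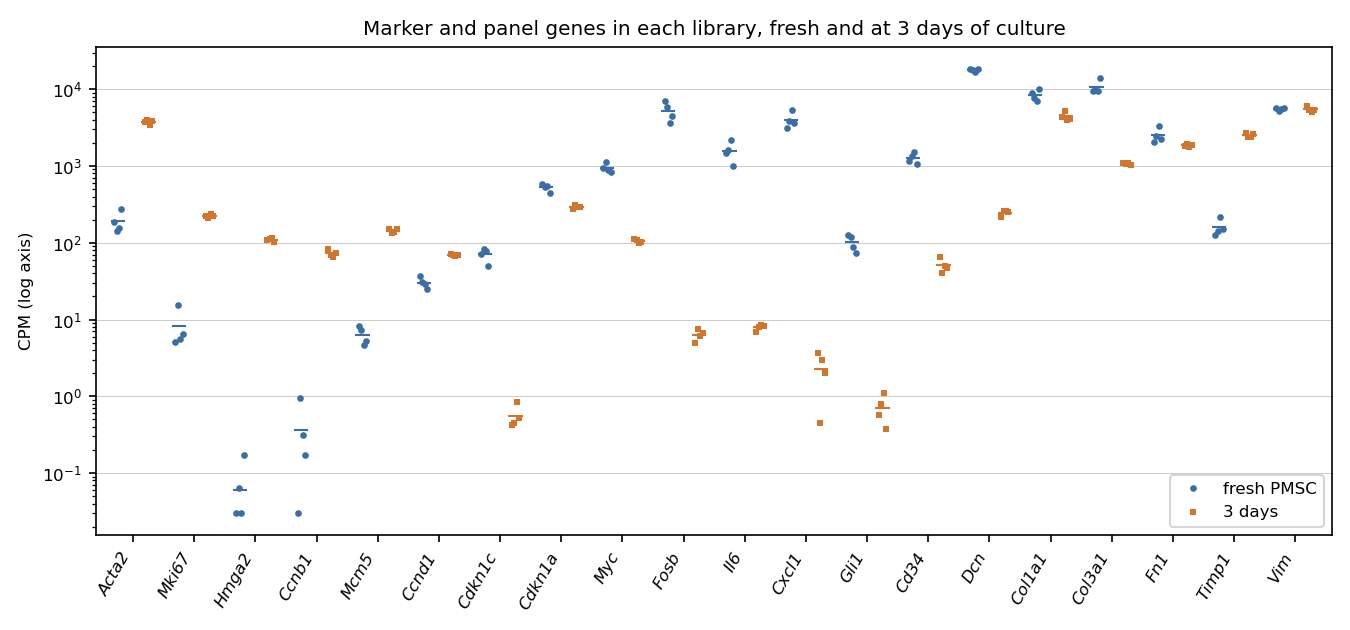
Level of 20 marker and panel genes in each of the 4 fresh (circles) and 4 day-3 (squares) libraries, in CPM on a log axis, with a bar at each group's mean and values under 0.03 CPM drawn at 0.03. Ccnb1 and Mcm5 are higher in every day-3 library, Cxcl1, Dcn and Gli1 lower in every one.

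The most abundant transcripts were largely exchanged. Per length, the leading genes of fresh cells were Gsn, which cuts actin filaments, at 19730.0 ± 2061 TPM (mean ± SD), the small proteoglycan Dcn at 17822 ± 1163 TPM, the lipoprotein Apoe at 12082 ± 1929 TPM, the matrix protein Dpt at 9372 ± 1125 TPM and the neutrophil-attracting chemokine Cxcl1 at 8955 ± 1981 TPM. At day 3 these stood at 269.9 ± 13.97, 321 ± 31.9, 31.8 ± 11.2, 21.0 ± 2.78 and 6.58 ± 4.01 TPM. Among the leading genes at day 3 were the ferritin light chain Ftl1 at 9290.3 ± 306 TPM, beta-actin (Actb) at 8230.2 ± 205 TPM and the metalloproteinase inhibitor Timp1 at 8068 ± 379 TPM. The peroxidase Prdx1 rose from 598 ± 32.5 to 6054 ± 577 TPM and the lectin Lgals1 from 1277 ± 299.7 to 6817 ± 548 TPM. Bgn, a small proteoglycan like Dcn, was among the 15 most abundant genes in both groups, at 7254 ± 1079.8 and 3748 ± 163 TPM, although it fell by 1.33 ± 0.13 on the log2 CPM scale. The intermediate filament Vim, the elongation factor Eef1a1 and the ferritin heavy chain Fth1 were also among the leading 15 in both groups, and none of the 3 passed the test, with changes of -0.03 ± 0.11, -0.15 ± 0.08 and -0.06 ± 0.11. On library totals these 3 were called as higher, at 0.48, 0.36 and 0.44, and without fresh replicate 4 Eef1a1 was called as lower, at -0.21.

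Among genes whose higher group averaged 20 CPM or more and whose libraries did not overlap, a separation shown by 34.5% of all genes upward and 35.6% downward, the steepest rises included hormones and matrix enzymes beside mitotic genes. Prl2c2 and Prl2c3, proliferins of the prolactin family, had no count in any fresh library and stood at 22.6, 36.3, 38.0 and 31.3 and 14.7, 20.8, 26.7 and 24.6 CPM at day 3. That is at least 617-fold and 418-fold higher, taking 3 counts over the fresh libraries as the floor. The copies of this family are nearly identical, so the split between them is uncertain. Tll1, a protease of the BMP1 family that trims procollagen, went from 0.200, 0.821, 0.104 and 0.174 CPM to 221, 265, 241 and 256 CPM. Ptprn, a protein of secretory granules in neuroendocrine cells, went from 0.133, 0.379, 0 and 0.232 CPM to 127, 95.4, 111 and 116 CPM. Both were abundant in every day-3 library and near 0 in fresh ones, with changes of 9.45 ± 0.41 and 9.04 ± 0.24, and that of Tll1 was 10.43 without fresh replicate 2. Cck, the gut and brain hormone cholecystokinin, was at 0.266, 0, 0 and 0 CPM in fresh cells, so its only fresh counts were in replicate 1, and at 75.8, 55.6, 63.9 and 64.2 CPM at day 3. Its change was 9.75 ± 0.46, and 13.40 without that replicate. Of the steepest falls, Inmt, a methyltransferase of small amines, went from 795, 841, 743 and 532 CPM to 0.0761, 0.412, 0.183 and 0.263 CPM. Slc10a6, a transporter of steroid sulfates, went from 213, 305, 193 and 151 CPM to 0.0381, 0, 0.110 and 0.113 CPM, and Steap4, a metalloreductase, from 807 ± 129 to 0.318 ± 0.108 CPM. Lrat, the enzyme that stores vitamin A as an ester and a marker of stellate cells, was at 235, 91.0, 89.0 and 229 CPM in fresh cells and had 1 count over the day-3 libraries.

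Of the cell cycle genes, the brakes, that is kinase inhibitors and pocket proteins, moved in both directions. Of 10 measured members of this list, 4 rose, 5 fell and 1 was not called. With libraries scaled by their totals 5 rose and 4 fell. Cdkn1c, the p57 inhibitor of quiescent cells, went from 71.4, 82.4, 78.9 and 49.7 CPM to 0.418, 0.450, 0.844 and 0.527 CPM. Cdkn1b, the p27 inhibitor, went from 64.2, 75.8, 53.7 and 68.4 CPM to 17.1, 17.4, 18.3 and 16.3 CPM. Both were lower in every day-3 library and fell, by 6.96 ± 0.30 and 1.93 ± 0.15 on the log2 scale, and so did Rbl2, the p130 protein that represses cycle genes in quiescent cells, by 2.67 ± 0.13. The p53-induced inhibitor Cdkn1a fell by 0.87 ± 0.11, from 531 ± 59.8 to 291 ± 14.7 CPM. Rbl1, the p107 relative of p130 that appears in cycling cells, rose by 2.01 ± 0.15, and Cdkn2c by 1.03 ± 0.15. The p19 inhibitor Cdkn2d was at 11.4, 9.85, 9.30 and 13.1 CPM and 13.0, 11.8, 11.1 and 14.5 CPM, which did not pass the test.

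Of the listed cyclins, cyclin-dependent kinases and Cdc25 phosphatases, 15 of 16 rose, 8 of them over 4-fold, and none fell. The summed level of this list went from 417 to 485 CPM in fresh libraries to 1534 to 1562 CPM at day 3. Ccnd1, the D-type cyclin that answers growth factors, went from 36.4, 30.8, 28.9 and 25.0 CPM to 71.1, 69.8, 66.7 and 69.4 CPM and rose again to 487 ± 63.0 CPM by day 7. Ccna2, the cyclin of S phase and G2, went from 2.79, 2.46, 2.19 and 2.67 CPM to 139, 108, 119 and 128 CPM. Cdk1, the kinase that starts mitosis, went from 0.333, 1.33, 0 and 0.407 CPM to 121, 94.9, 101 and 117 CPM, and its partner Ccnb1 from 0, 0.947, 0.313 and 0.174 CPM to 82.6, 68.4, 65.8 and 74.5 CPM. The day-3 libraries lay close together for all of these, and fresh replicate 2 was the highest fresh library for Cdk1 and Ccnb1. Cdk6 did not pass the test, at 18.6 ± 3.46 and 23.5 ± 3.22 CPM and a change of 0.33 ± 0.15, but passed it without fresh replicate 4 (0.48), day-3 replicate 3 (0.44) or day-3 replicate 4 (0.40). The changes of Ccnd1, Ccna2, Cdk1 and Ccnb1 were 1.19 ± 0.12, 5.59 ± 0.16, 7.57 ± 0.30 and 7.62 ± 0.37, with edgeR adjusted p of 1.74e-08, 4.01e-16, 2.16e-14 and 4.27e-13. Without fresh replicate 2 those of Cdk1 and Ccnb1 were 8.50 and 8.88.

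The transcription factors over these genes changed less evenly, with 11 of 16 rising. The repressive E2F factors E2f7 and E2f8, which are made in cycling cells, rose by 2.72 ± 0.23 and 5.16 ± 0.29, Foxm1, the driver of mitotic genes, by 3.62 ± 0.16 from 8.13 ± 1.27 to 99.7 ± 5.66 CPM, and its partner Mybl2 by 3.31 ± 0.32. Tfdp2, a dimer partner of E2F factors, fell by 2.67 ± 0.18, and E2f2, at 1.60 ± 0.753 and 1.43 ± 0.254 CPM, did not pass the test.

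All 23 measured genes of replication licensing rose, with a median of 2.55. Mcm5 and Mcm2, subunits of the helicase, went from 6.31 ± 1.61 to 143 ± 8.93 CPM and from 6.70 ± 1.13 to 101 ± 1.49 CPM, and Gmnn, the inhibitor that prevents a repeat of licensing, from 0.335 ± 0.258 to 14.4 ± 1.78 CPM. At the replication fork 25 of 27 genes rose. Chaf1a, which deposits histones on new DNA, rose by 3.71 ± 0.17 and the checkpoint adaptor Clspn by 3.63 ± 0.17. The sliding clamp Pcna was already at 180.4, 159, 159 and 139 CPM in fresh cells and was at 145, 124, 133 and 142 CPM at day 3. Its call was weak (-0.23 ± 0.08, edgeR adjusted p = 0.0155): the change was 0.28 and called as higher with libraries scaled by their totals, and -0.16 without fresh replicate 1, -0.15 without day-3 replicate 2 and -0.19 without day-3 replicate 3, none of which 3 passed the test. For nucleotide synthesis 20 of 21 genes rose. Rrm2, the regulated subunit of ribonucleotide reductase, went from 7.45, 5.49, 6.16 and 6.04 CPM to 246, 231, 224 and 258 CPM, above every fresh library in each. Tyms, which makes thymidylate, rose by 3.81 ± 0.15, and Umps, of pyrimidine synthesis, by 2.90 ± 0.16, while Impdh2, of guanine nucleotide synthesis, fell by 0.78 ± 0.12.

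The kinetochore and spindle lists had the highest medians of the lists counted here. All 25 kinetochore and checkpoint genes rose, with a median of 4.37, and 26 of 27 genes of spindle, anaphase and cytokinesis, with a median of 5.43. Kif18b and Kif4, motors of mitotic microtubules and chromosomes, went from 0.0781 ± 0.0600 to 33.3 ± 1.78 CPM and from 0.585 ± 0.426 to 55.6 ± 4.48 CPM. Aurkb, the kinase that corrects wrong attachments, was at 0.333, 0.316, 0 and 0.174 CPM and then at 41.4, 40.6, 39.2 and 41.5 CPM. Plk1, the kinase of mitotic entry, was at 0.599, 1.01, 0.313 and 0.0581 CPM and then at 100.4, 85.5, 78.0 and 90.1 CPM, with a change of 7.44 ± 0.32 that was 8.08 without fresh replicate 2, the highest fresh library. The exception was Pttg1, the securin that holds separase back until anaphase, which went from 42.8, 33.7, 52.4 and 49.1 CPM to 11.98, 11.4, 10.6 and 12.8 CPM, against the rest of its list. Among condensin, cohesin and mitotic chromatin genes 16 of 19 rose. Top2a, which untangles chromosomes, went from 0.798, 5.37, 2.72 and 4.71 CPM to 222, 205, 229.7 and 226 CPM and the condensin subunits Smc2 and Ncapd2 rose by 3.74 ± 0.12 and 3.56 ± 0.15. The cohesin genes Stag1, Stag2 and Smc1a, which act through all of interphase, were the 3 that fell, by 0.67 ± 0.09, 0.80 ± 0.12 and 0.73 ± 0.10. Of homologous recombination and checkpoint kinase genes 20 of 21 rose. The nuclease Exo1 had 2 counts over the fresh libraries against 26.6, 22.3, 24.0 and 24.7 CPM at day 3, a ratio of 703 with a 95% counting interval of 194 to 5808.

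The later course of these lists differed. Between day 3 and day 7, in a comparison that shares the day-3 libraries, 36.0% of all tested genes were called. Of the 27 spindle genes 0 rose and 3 fell between day 3 and day 7, where 18.6% and 17.4% of all genes did, and of the 25 kinetochore genes 0 rose and 3 fell. Of the 16 cyclins, kinases and Cdc25 phosphatases 3 rose, among them Ccnd1, and 4 fell, and of the 10 inhibitors and pocket proteins 6 rose. Of the 23 licensing genes 11 fell. Mki67 was at 275, 252, 276 and 246 CPM at day 7, above its day-3 libraries but not past the test, and Mcm5 at 84.0, 77.8, 73.2 and 72.4 CPM.

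**Figure D2:**
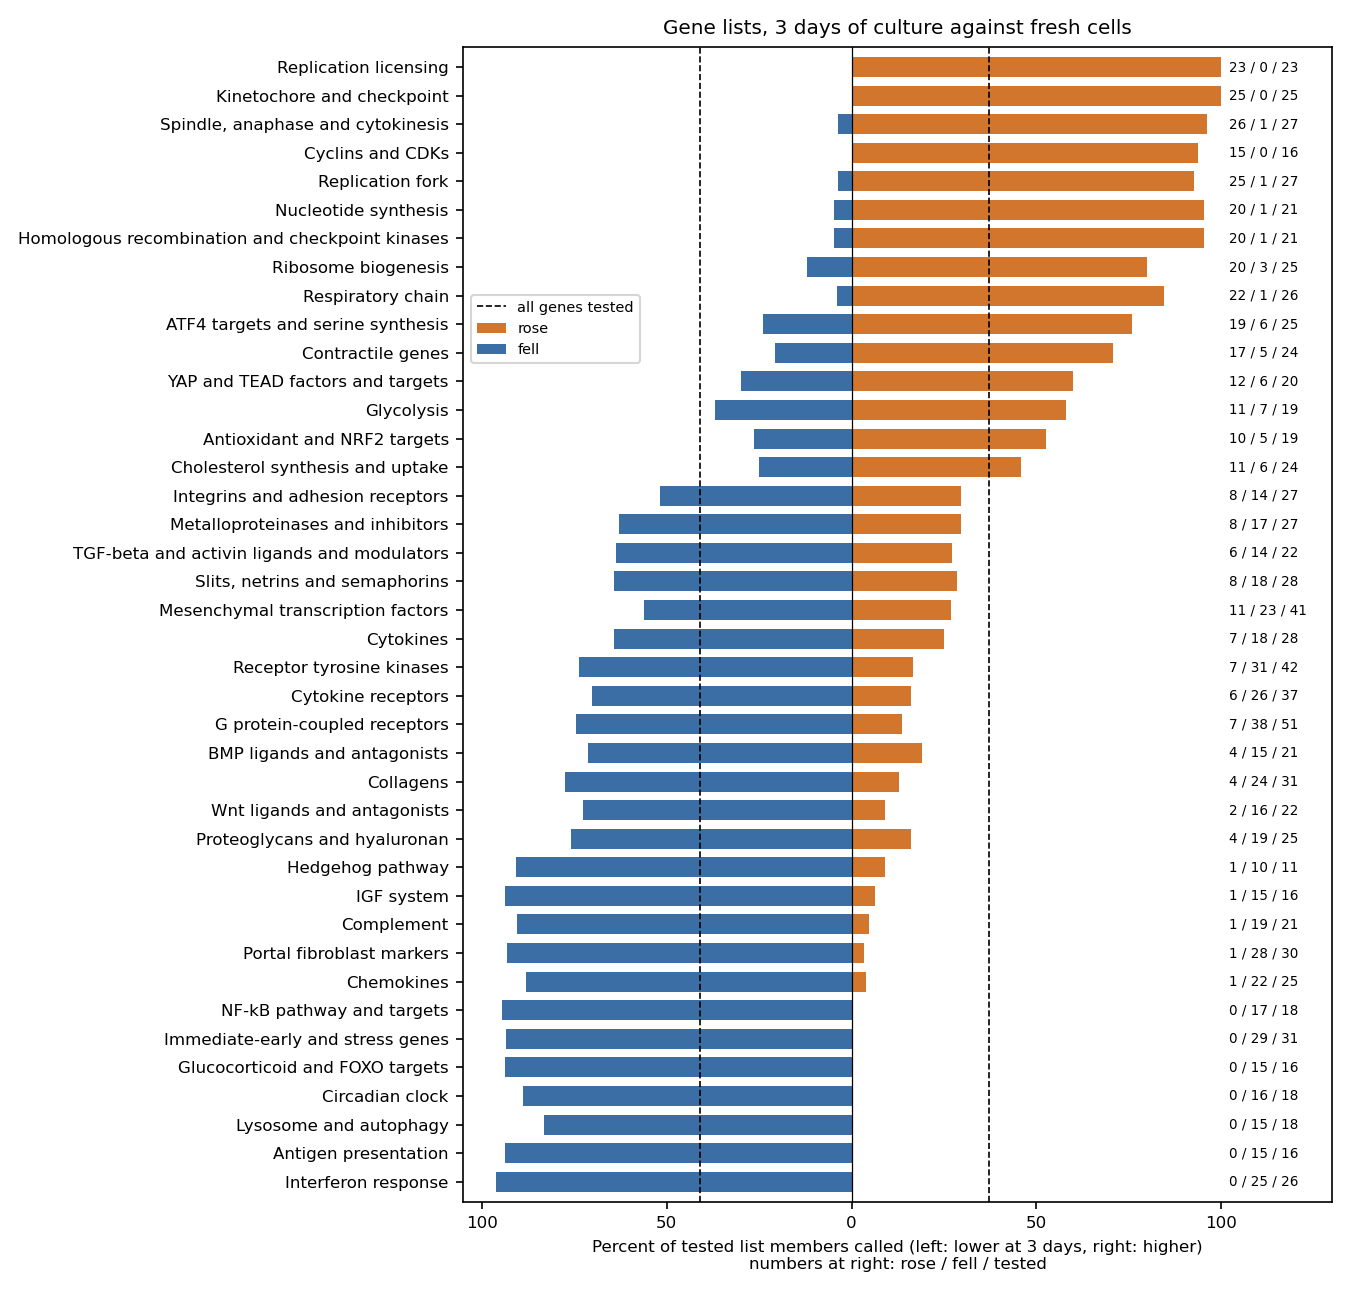
Percent of the measured members of each gene list drawn that rose (right) or fell (left) at day 3 against fresh cells, with dashed lines at the shares over all tested genes and the counts of rose, fell and tested at the right. In the lists of replication licensing and of kinetochore genes every measured member rose. The lists of interferon response, antigen presentation, circadian clock and immediate-early genes, among others, hold no risen member.

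Bases before the transcript starts of 4 of the mitotic and cyclin genes are shown because the CHR element (searched as TTTGAA) and the CCAAT box (searched as CCAAT) are the textbook pair of such promoters. They are RefSeq sequences of GRCm38.p6, each ending 1 base before a start, on the gene's strand, at chr10:69352913-69353002, chr11:99024190-99024299, chr7:127042421-127042490 and chr17:24251410-24251559, all on the minus strand. Capitals mark every match on either strand, so that TTCAAA and ATTGG are the same elements read on the opposite strand.
Cdk1: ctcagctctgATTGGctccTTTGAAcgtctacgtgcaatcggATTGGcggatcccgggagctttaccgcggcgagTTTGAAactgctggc
Top2a: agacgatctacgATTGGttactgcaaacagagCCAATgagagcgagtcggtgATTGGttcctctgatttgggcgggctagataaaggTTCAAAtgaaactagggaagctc
Kif22: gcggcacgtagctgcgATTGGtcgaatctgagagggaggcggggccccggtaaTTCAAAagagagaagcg
Ccnf: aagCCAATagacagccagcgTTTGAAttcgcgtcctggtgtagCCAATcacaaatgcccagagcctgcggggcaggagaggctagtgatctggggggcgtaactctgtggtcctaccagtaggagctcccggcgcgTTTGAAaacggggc
In the 250 bases before any annotated start, a CHR match was present in 12 of 25 spindle genes with a sequence (48.0%), in 8 of 14 condensin and chromatin genes (57.1%), in 2 of 22 kinetochore genes (9.09%) and in 13.0% of all 11463 tested genes with one. Both elements occurred together in 9 of 25 spindle genes (36%), 2 of 22 kinetochore genes (9.09%) and in 4.89% of all tested genes. A CCAAT box alone was common, in 40.2% of all tested genes. The genes shown went up together: Ccnf, a cyclin-like adaptor of a ubiquitin ligase, rose by 4.95 ± 0.19 and Kif22, a chromosome-arm motor, by 6.99 ± 0.35. The E2F site (searched as TTTNGCGC) was found in 3 of 18 licensing genes (16.7%) and 2.22% of all. It was also found in 2 of 8 inhibitor and pocket protein genes (25%) and 2 of 11 antigen presentation genes (18.2%). Of 22 kinetochore genes 0 had it. Over all tested genes it was found in 2.73% of those that rose and 1.85% of those that fell. A match is a description of letters and not a shown binding site.

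Acute response genes stood high in fresh cells and fell. None of the 31 immediate-early and stress genes tested rose and 29 fell, with a median of -4.61. These genes are known to answer serum, stress and tissue dissociation within minutes to hours. Fosb went from 6963, 5932, 3587 and 4492 CPM to 4.98, 7.42, 6.13 and 6.66 CPM and Fos from 2222, 1705, 935 and 1062 CPM to 5.37, 6.45, 4.55 and 5.27 CPM, both subunits of AP-1. The stress factor Atf3 went from 754 ± 262 to 1.62 ± 0.331 CPM, the orphan receptor Nr4a3 from 1736 ± 384 to 8.73 ± 1.26 CPM and Socs3, the feedback inhibitor of IL-6 signals, from 2089 ± 476 to 13.6 ± 1.52 CPM. No day-3 library reached the lowest fresh library for these 5 genes. Klf6, at 230.4, 244, 218 and 212 CPM and then 215, 257, 253 and 243 CPM, did not pass the test, with a change of 0.10 ± 0.11. Myc, also a serum-response gene, fell by 3.16 ± 0.13, from 942, 1126, 881 and 829 CPM to 111, 109.9, 99.6 and 103 CPM, while the cell cycle genes rose, and fell again to 46.7 ± 10.1 CPM by day 7. Of the 11 genes of the MYC network 4 rose and 5 fell, and the antagonists Mxd1 and Mxi1 fell as well, by 4.47 ± 0.18 and 2.24 ± 0.15.

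Genes of the NF-kB pathway and its targets fell in 17 of 18 cases. The inhibitor Nfkbia, itself an NF-kB target, went from 1102, 1086, 1167 and 1196 CPM to 32.9, 27.1, 33.2 and 32.1 CPM, and the adhesion molecule Icam1 from 2740.3, 2691, 2431 and 2659 CPM to 26.6, 44.4, 38.7 and 40.7 CPM. Chemokines followed, with 22 of 25 falling and 1 rising. Cxcl1 and Cxcl2 attract neutrophils, and Cxcl10 attracts T cells. Cxcl1 was at 3146, 3857, 5329 and 3623 CPM in fresh cells and 3.69, 0.450, 2.94 and 1.99 CPM at day 3. Cxcl2 was at 205, 255, 359.7 and 288 and then at 0.114, 0, 0.220 and 0.0752 CPM, and its change of -11.31 ± 0.59 was -11.94 without day-3 replicate 3. Cxcl10 was at 593, 443, 371 and 341 and then at 0.228, 0, 0.0734 and 0.226 CPM. The separation was complete in all 3, and neither Cxcl1 nor Cxcl2 passed the test between day 3 and day 7. Il6, the inflammatory cytokine, fell by 7.61 ± 0.38. The summed level of all 27 chemokines in the files, tested or not, was 10138 to 12540.2 CPM in the fresh libraries and 851 to 1007 CPM in the day-3 libraries.

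The interferon response list fell in 25 of 26 genes with a median of -6.21, where 41.1% of all genes fell. The ubiquitin-like protein Isg15 went from 129.9, 140.1, 98.7 and 67.7 CPM to 0.152, 0.562, 0.514 and 0.414 CPM, Ifit1, which binds viral RNA, from 61.0, 76.7, 37.4 and 39.4 CPM to 0.114, 0.450, 0.147 and 0.263 CPM, and the GTPase Iigp1 from 542, 413, 328 and 448 CPM to 0.533, 0.113, 0.514 and 0.301 CPM. Ifit2, a close relative of Ifit1, stood apart at 29.0, 44.2, 27.3 and 29.4 CPM and 24.9, 29.3, 32.1 and 25.4 CPM, which did not pass the test. Isg15 and Ifit1 rose again between day 3 and day 7, to 1.51 ± 1.13 and 1.84 ± 1.47 CPM, below every fresh library. Antigen presentation fell with it in 15 of 16 genes. The class I genes H2-K1 and H2-D1, whose reads are partly shared among related genes, went from 1041 ± 147 to 64.2 ± 1.90 CPM and from 1342 ± 209 to 88.9 ± 3.37 CPM, and B2m, their light chain, from 1966 ± 259.6 to 194 ± 5.29 CPM. Psmb8, a subunit of the immunoproteasome, fell by 4.61 ± 0.22. Of the complement genes 19 of 21 fell. C7, of the membrane attack complex, went from 3799 ± 1492 to 4.84 ± 1.25 CPM, C4b from 5059.6 ± 1659.5 to 9.78 ± 3.21 CPM and the C1 inhibitor Serping1 from 4737 ± 485 to 25.6 ± 5.96 CPM.

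Promoter bases of 4 of these genes are shown for the interferon-stimulated response element (ISRE, searched as GAAA, any 2 bases and GAAA again) and the NF-kB site (searched as GGGA, any 2 bases and TTCC), with matches on either strand in capitals and overlapping matches run together. They lie at chr4:156200859-156200908 on the minus strand and at chr19:34640774-34640833, chr5:90891160-90891209 and chr5:90903789-90903838 on the plus strand of GRCm38.p6 (RefSeq).
Isg15: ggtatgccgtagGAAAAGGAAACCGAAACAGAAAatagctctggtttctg
Ifit1: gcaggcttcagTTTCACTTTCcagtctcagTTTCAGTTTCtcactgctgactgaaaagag
Cxcl1: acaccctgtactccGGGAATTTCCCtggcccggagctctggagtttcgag
Cxcl2: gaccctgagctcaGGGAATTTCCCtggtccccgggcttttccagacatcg
An ISRE match was found in 13 of 20 interferon response genes with a sequence (65.0%) and in 3.24% of all tested genes. An NF-kB match was found in 4 of 17 chemokine genes (23.5%) and in 1.4% of all. The site of Cxcl1 and that of Cxcl2 have the same 11 letters, and the falls of both genes are given above.

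Clock and hormone-response genes also stood higher in fresh cells. Of 18 clock genes 16 fell and none rose. Bhlhe40, a repressor tied to the clock, went from 976, 1410.3, 919 and 913 CPM to 77.3, 56.6, 64.9 and 67.0 CPM and Rora, a driver of Bmal1, from 191, 269, 213 and 225 CPM to 14.5, 12, 12.7 and 12.6 CPM. Hlf, an output factor of the clock, went from 36.5 ± 19.5 to 1.55 ± 0.468 CPM and further to 0.302 ± 0.180 CPM by day 7. A lower level and another phase of the clock cannot be told apart here, since the hours of collection are not given in the sources used here. A CACGTG E-box was found in 5 of 16 clock genes with a sequence (31.2%) and in 9.49% of all tested genes. Of 16 glucocorticoid and FOXO genes 15 fell. The list holds targets, which answer stress hormones and a lack of growth factors, and also regulators such as Nr3c1, Foxo1, Foxo3 and Hsd11b1. Zbtb16 went from 219, 441, 226 and 249 CPM to 2.51, 2.36, 2.42 and 2.07 CPM and Klf9 from 411, 431, 374 and 414 CPM to 22.4, 25.5, 23.7 and 20.7 CPM, and Hsd11b1, which reactivates cortisone, from 534 ± 159 to 64.9 ± 21.9 CPM. The p53 targets split, with 9 of 19 rising and 8 falling. Ccng1, Bax and Zmat3, of which Bax is a death effector, rose by 2.70 ± 0.10, 2.49 ± 0.10 and 2.40 ± 0.10, and Btg2, Gadd45a and Fas fell by 4.61 ± 0.22, 3.99 ± 0.20 and 3.86 ± 0.18.

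Genes known to mark portal fibroblasts fell in 28 of 30 cases, with a median of -6.04. Their summed level went from 87763 to 104514 CPM in the fresh libraries to 4939 to 5393 CPM at day 3. Clec3b, which binds plasminogen, was at 909.5, 1127, 1229 and 684 CPM and then at 0.114, 0.188, 0.587 and 0.639 CPM. Mfap4, a glycoprotein of elastic fibres, was at 2873, 2603, 2477 and 2779 CPM and then at 5.21, 8.02, 6.46 and 7.30 CPM. Pi16, a marker of a fibroblast population found in many organs, was at 356, 213, 619 and 157 CPM and then at 1.10, 0.637, 1.14 and 0.941 CPM. Each stood under 10 CPM in every day-3 library. Gli1, the target and effector of hedgehog signals, went from 126, 118, 87.2 and 72.9 CPM to 0.571, 0.787, 1.10 and 0.376 CPM. Of 11 hedgehog genes, Gli1 included, 10 fell, among them the hedgehog-binding protein Hhip by 2.94 ± 0.32. Fbln2, an elastic fibre protein, was the 1 marker that rose, from 441, 678, 1680.1 and 625 CPM to 3401, 2981, 3251 and 3496 CPM and on to 5988 ± 940.5 CPM at day 7. The surface marker Thy1 was at 185, 111, 144 and 65.9 CPM and then at 59.1, 72.7, 59.3 and 88.6 CPM, with overlapping libraries. Its fall of 0.86 ± 0.33 on the log2 scale (edgeR adjusted p = 0.0228) did not pass the test on library totals (-0.35) or without fresh replicate 1 (-0.61), fresh replicate 3 (-0.79), day-3 replicate 1 (-0.76), day-3 replicate 2 (-0.85) or day-3 replicate 3 (-0.76), and it was higher at day 7, at 495 ± 104 CPM. Pdgfra, the receptor that marks fibroblasts in general, fell by 1.24 ± 0.18, from 917 ± 89.8 to 389 ± 50.4 CPM.

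Of 41 transcription factors of mesenchymal cells 23 fell and 11 rose. Tcf21, of embryonic fibroblast lineages, went from 371, 367, 326 and 336 CPM to 5.97, 10.99, 10.3 and 11.3 CPM. The CCAAT-binding factors Cebpd and Cebpb went from 1156 ± 36.8 to 16.9 ± 1.64 CPM and from 422 ± 45.5 to 38.4 ± 4.37 CPM. Runx2, the driver of bone formation, and Foxf2, a hedgehog-linked factor of gut mesenchyme, rose by 2.38 ± 0.20 and 3.67 ± 0.50, and Hmga1 by 2.90 ± 0.18. Gata4, at 99.0, 101, 62.1 and 108 CPM and then 65.7, 96.0, 70.2 and 74.0 CPM, did not pass the test. Of 20 oncofetal and imprinted genes 6 rose and 9 fell: Igf2, the fetal growth factor, went from 88.4 ± 14.96 to 0.450 ± 0.0929 CPM and the maternally expressed RNA Meg3 from 415 ± 104 to 92.9 ± 3.42 CPM.

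Metabolic genes changed in a divided way. Enzymes and transporters of the ATF4 programme and of serine synthesis rose in 19 of 25 cases, with a median of 1.86, although Atf4 itself fell by 1.79 ± 0.08, from 744 ± 78.0 to 215 ± 7.55 CPM. Psat1 and Phgdh, of serine synthesis, went from 10.2, 7.51, 7.42 and 10.3 CPM to 258, 261, 252 and 271 CPM and from 16.9, 20.2, 16.3 and 15.7 CPM to 174, 155, 159 and 162 CPM. Asns, which makes asparagine, rose by 4.23 ± 0.32, and Mthfd2, of mitochondrial one-carbon metabolism, by 3.19 ± 0.11. The stress factor Ddit3 and the glutamine carrier Slc1a5 fell by 1.97 ± 0.15 and 1.75 ± 0.17. Ribosome biogenesis rose in 20 of 25 genes, among them the processing factors Bop1 and Wdr12 by 2.09 ± 0.13 and 3.05 ± 0.18 and the large subunit of RNA polymerase I, Polr1a, by 1.84 ± 0.11. Nop58, of box C/D particles, fell by 1.91 ± 0.13. Of 25 such genes 24 fell between day 3 and day 7.

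Of 19 glycolytic genes 11 rose and 7 fell. Eno1, Pgam1, Pgk1, Pkm and Gapdh, enzymes of the later steps, rose by 3.54 ± 0.18, 2.49 ± 0.12, 2.46 ± 0.10, 2.36 ± 0.08 and 2.06 ± 0.12. Hk2, which phosphorylates glucose at the entry, went from 985, 1206, 1116 and 846 CPM to 62.8, 70.8, 67.0 and 66.7 CPM, and Pfkfb3, whose product activates phosphofructokinase, fell by 1.90 ± 0.22. The lactate carriers Slc16a1 and Slc16a3 fell by 1.38 ± 0.13 and 1.46 ± 0.20, and the glucose carrier Slc2a1 was at 187 ± 34.4 and 176 ± 7.28 CPM, which did not pass the test. In the respiratory chain 22 of 26 nuclear genes rose, by less: the median was 0.72, Cox5a rose by 2.12 ± 0.16 and Atp5b, of the ATP synthase, by 1.28 ± 0.07. Cholesterol genes were mixed, with 11 of 24 rising and 6 falling, or 15 and 2 on library totals: Sqle, Fdps and Msmo1 rose by 2.47 ± 0.38, 2.33 ± 0.31 and 2.19 ± 0.17, and Insig1, the sterol-regulated brake of the pathway, fell by 2.26 ± 0.21. Lipid uptake and storage genes fell in 10 of 13 cases, among them lipoprotein lipase (Lpl), from 673 ± 117 to 148 ± 13.3 CPM, while the droplet coat gene Plin2 rose by 2.15 ± 0.12. Of 26 genes of ER folding 18 rose and 4 fell. Hspa5, the main ER chaperone, was among those that fell, from 2551 ± 142 to 1368 ± 147 CPM, and Pdia4, a disulfide isomerase, rose by 1.24 ± 0.14. Lysosomal and autophagy genes fell in 15 of 18 cases and none rose, with Lamp2 going from 1199 ± 121 to 228 ± 11.4 CPM. With libraries scaled by their totals 11 of the 18 fell and 3 rose.

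Antioxidant genes held some of the steepest metabolic changes in both directions, with 10 of 19 rising and 5 falling. Nqo1, a quinone reductase and standard NRF2 target, was at 4.92, 4.61, 3.24 and 5.29 CPM and then at 676, 588, 648 and 673 CPM. Slc7a11, which imports cystine for glutathione, was at 8.18, 7.96, 2.72 and 4.42 CPM and then at 323, 363, 406 and 356 CPM. Gclm, of the enzyme that starts glutathione synthesis, was at 50.1, 56.3, 43.1 and 50.6 CPM and then at 474, 449.6, 475 and 475 CPM. These 3 were higher in every day-3 library, by 7.14 ± 0.18, 5.93 ± 0.30 and 3.23 ± 0.16, with edgeR adjusted p of 1.05e-16, 6.79e-13 and 3.3e-13. G6pdx, which supplies NADPH, and Gsr, which reduces glutathione, rose by 2.24 ± 0.13 and 2.06 ± 0.17. The metallothioneins Mt1 and Mt2, whose sequences are similar, went from 1488 ± 466 to 58.1 ± 2.65 CPM and from 1658 ± 589 to 31.3 ± 0.692 CPM, the secreted peroxidase Gpx3 from 2199 ± 283 to 23.5 ± 4.80 CPM and the mitochondrial dismutase Sod2 from 306 ± 39.8 to 48.6 ± 1.24 CPM, all downward. The cytosolic dismutase Sod1, at 172 ± 17.9 and 175 ± 8.20 CPM, did not pass the test.

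The antioxidant response element (searched as TGACNNNGC) is shown for 2 of the genes that rose, in capitals as read on either strand, at chr3:122245397-122245456 and chr4:116685439-116685498, both on the plus strand of GRCm38.p6 (RefSeq).
Gclm: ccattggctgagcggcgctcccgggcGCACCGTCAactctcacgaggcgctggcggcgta
Prdx1: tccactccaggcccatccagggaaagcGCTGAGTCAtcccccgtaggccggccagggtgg
The element was found in 6 of 15 antioxidant genes with a sequence (40.0%) and in 13.8% of all tested genes. The 6 were Gclm, Txnrd1, G6pdx, Sod1, Prdx1 and Mt2, so that they include a gene that fell and a gene that did not pass the test. Nqo1 had no match in this window. Outside this list the element was found in 6 of 10 MYC network genes (60%). Over all tested genes it was found in 13.2% of those that rose and 14% of those that fell.

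Falls outnumbered rises in the lists of secreted factors, except among peptide hormones, where 6 rose and 6 fell. Of the 28 cytokines 7 rose and 18 fell. Csf1, the growth factor of macrophages, rose from 576, 848, 971 and 834 CPM to 4073, 4290.4, 4155 and 4289.6 CPM. Il11, a cytokine that fibroblasts make after TGF-beta, went from 41.6, 37.1, 24.2 and 18.4 CPM to 169.5, 135, 212 and 184 CPM, above every fresh library. The FLT3 ligand Flt3l, the alarmin Il33 and the B cell factor Tnfsf13b fell, by 5.99 ± 0.34, 4.84 ± 0.54 and 4.25 ± 0.23. Kitl, the stem cell factor, was at 74.2 ± 15.1 and 76.4 ± 2.48 CPM, which did not pass the test.

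In the TGF-beta family, Inhba, the subunit of activin A, was at 27.7, 29.2, 29.9 and 20.3 CPM in fresh cells and 1230.3, 1209, 1301 and 1259.9 CPM at day 3. It rose by 5.55 ± 0.18 (edgeR adjusted p = 1.5e-15), and 14 of the 22 ligands and modulators of this list fell. Tgfb1 went from 62.6, 62.5, 59.3 and 64.5 CPM to 168, 136, 146 and 156 CPM while Tgfb2 went from 108, 130.3, 116 and 117 CPM to 26.8, 33.4, 26.7 and 24.9 CPM, so the 2 ligands moved in opposite directions without overlap. Ltbp4, which anchors latent TGF-beta in elastic fibres, fell by 6.38 ± 0.23 and Tgfbi, a matrix protein named for its induction by TGF-beta, from 1763 ± 338 to 2.48 ± 0.375 CPM. Fst, the activin antagonist, rose by 1.67 ± 0.41, and by 2.47 without fresh replicate 3. BMP ligands and antagonists fell in 15 of 21 cases: Bmp2 and Bmp5 went from 183 ± 17.1 to 2.28 ± 0.487 CPM and from 141 ± 35.5 to 2.73 ± 1.10 CPM, Gdf10 from 915 ± 228 to 3.98 ± 1.21 CPM and the antagonist Chrdl1 from 149.8 ± 25.8 to 0.159 ± 0.113 CPM. The antagonist Grem1 rose by 2.42 ± 0.31 and Bmper, another BMP binder, by 2.33 ± 0.21.

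Of 22 Wnt ligands and antagonists 16 fell and 2 rose. Wnt2, a ligand, was at 2.79, 3.60, 9.61 and 1.45 CPM and then at 37.4, 30.0, 37.3 and 37.5 CPM, with a change of 3.12 ± 0.33 that was 3.77 without fresh replicate 3. The antagonists Sfrp1 and Dkk3 went from 1676 ± 530.0 to 68.4 ± 19.7 CPM and from 442 ± 59.1 to 17.9 ± 4.89 CPM. Among FGF, HGF and VEGF ligands 15 of 21 fell and 3 rose: Fgf2 rose by 2.60 ± 0.19 and Fgf7 by 1.83 ± 0.32, and Hgf, the liver cell growth factor, fell by 2.41 ± 0.31, Vegfd by 3.83 ± 0.31 and Angpt1 by 5.96 ± 0.36. In the IGF system 15 of 16 genes fell. Igfbp3 went from 3409.9, 3115, 2256 and 3495 CPM to 7.23, 12, 6.09 and 9.10 CPM and Igfbp4 from 3626 ± 672 to 149.8 ± 42.3 CPM, and Igfbp2 was the 1 gene that rose, by 4.44 ± 0.41. The ligand Igf1 fell by 0.87 ± 0.24 (edgeR adjusted p = 0.00267), a call that was lost on library totals (-0.36). The neurotrophin Bdnf rose by 0.93 ± 0.19, and the heparin-binding factors Ptn and Mdk fell, from 81.8 ± 26.4 to 0.130 ± 0.0965 CPM and from 70.3 ± 15.7 to 0.986 ± 0.274 CPM. Pdgfd fell by 4.48 ± 0.17, whereas Pdgfc, going from 22.2 ± 3.12 to 24.5 ± 4.09 CPM, and Hbegf, going from 85.5 ± 26.1 to 79.8 ± 9.45 CPM, did not pass the test. Among matricellular proteins, Wisp1 rose by 4.14 ± 0.18, Ctgf by 1.72 ± 0.21 and Cyr61 by 1.45 ± 0.18, all of the CCN family. Thbs1, already at 6917, 8511, 6462 and 6313 CPM in fresh cells, was at 7592, 8948, 7583 and 7815 CPM at day 3 and did not pass the test, while its relatives Thbs2 and Thbs3 fell by 5.85 ± 0.30 and 5.44 ± 0.28. Of 28 guidance genes, 8 rose, including the membrane-bound semaphorin Sema7a by 4.57 ± 0.39 and its family's receptor Plxna1 by 2.30 ± 0.10, and 18 fell, including Sema3b by 5.58 ± 0.41 and the receptor Plxna4 by 5.61 ± 0.26.

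**Figure D3:**
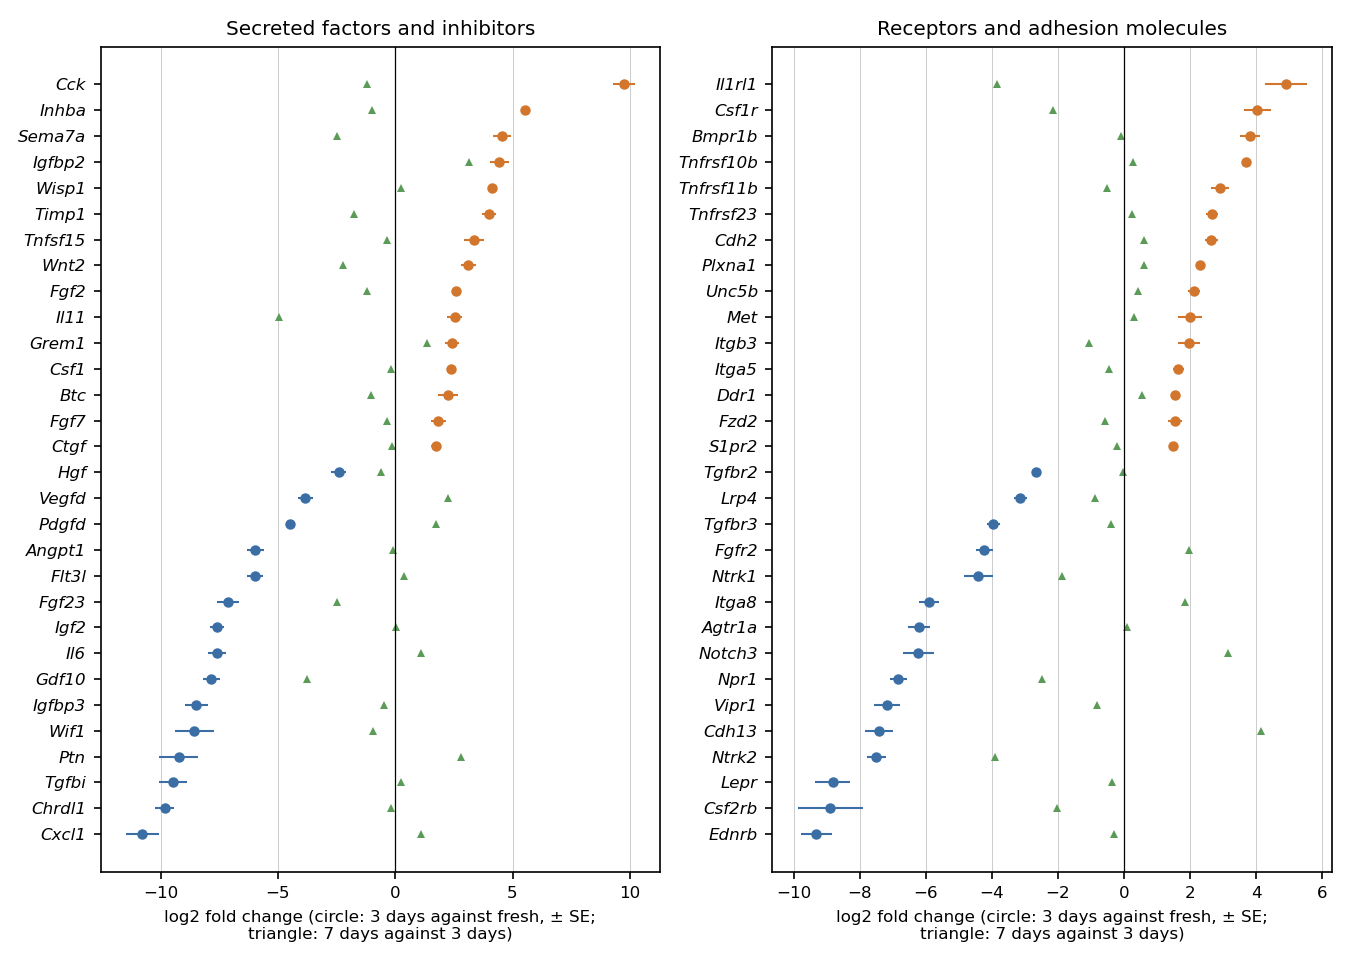
Log2 fold change of 15 risen and 15 fallen secreted factors (left) and receptors or adhesion molecules (right) at day 3 against fresh cells (circles, bars are standard errors) and at day 7 against day 3 (triangles). Both comparisons contain the day-3 libraries, so the triangles are not independent of the circles. Il11, Il1rl1 and Ntrk2 have triangles far below 0, and Cdh13, Notch3, Igfbp2 and Ptn above it.

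Receptors fell more often than they rose in every receptor list. Of 42 receptor tyrosine kinases 31 fell and 7 rose, against 41.1% and 37.2% of all genes. Ntrk2, the receptor of BDNF, was at 555, 612, 513 and 485 CPM and then at 3.50, 2.17, 3.63 and 2.67 CPM. Fgfr2 was at 191, 116, 142 and 222 CPM and then at 8.56, 11.2, 9.10 and 6.85 CPM. Csf1r, the receptor of CSF1 and better known from macrophages, was at 1.86, 3.66, 0.104 and 2.498 CPM and then at 29.4, 37.4, 36.4 and 40.8 CPM. The groups did not overlap for any of the 3, and Csf1r was the receptor kinase with the largest rise, at 4.04 ± 0.41 (edgeR adjusted p = 2.81e-08). None of the other 18 macrophage markers rose, 9 fell, 9 were not called, and their sum was at 27.0 to 37.8 CPM in fresh and 2.05 to 3.2 CPM in day-3 libraries. With Csf1r the sums were 30.7 to 39.7 and 31.5 to 44.0 CPM. Met, the HGF receptor, rose by 2.004 ± 0.36, and Ddr1, a collagen receptor, by 1.56 ± 0.14.

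Cytokine receptors fell in 26 of 37 cases. Tnfrsf10b, the death receptor for TRAIL, went from 6.32, 5.37, 6.89 and 5.58 CPM to 76.3, 77.1, 77.9 and 77.2 CPM. Tnfrsf11b, the decoy receptor osteoprotegerin, went from 15.4, 11.8, 33.5 and 38.4 CPM to 198, 162, 178 and 207 CPM. Both rose, by 3.68 ± 0.11 and 2.92 ± 0.27, and so did Il1rl1, the IL-33 receptor, by 4.91 ± 0.62 from 0.638 ± 0.307 to 18.4 ± 8.38 CPM, in the days in which its ligand Il33 fell. The leptin receptor Lepr went from 178, 215, 118 and 110.5 CPM to 0.190, 0.188, 0.257 and 0.715 CPM, a change of -8.82 ± 0.53 that was -9.44 without day-3 replicate 4. The TGF-beta receptors Tgfbr2 and Tgfbr3 fell by 2.67 ± 0.10 and 3.95 ± 0.19, the type I BMP receptor Bmpr1b rose from 1.34 ± 0.945 to 20.1 ± 2.19 CPM, and the Wnt receptor Fzd2 rose by 1.53 ± 0.21. Notch genes fell in 11 of 16 cases, with the receptor Notch3 going from 278, 167, 112 and 249.9 CPM to 1.94, 2.44, 3.78 and 2.63 CPM and the target Heyl from 257, 291, 159 and 283 CPM to 0.0381, 0.263, 0.147 and 0.301 CPM, while Notch2, at 144 ± 23.8 and 157 ± 12.3 CPM, did not pass the test.

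Of 51 G protein-coupled receptors 38 fell and 7 rose. Agtr1a, the angiotensin receptor, went from 75.7, 91.0, 53.1 and 93.4 CPM to 0.913, 1.05, 1.36 and 0.903 CPM and Ednrb, the endothelin B receptor, from 181, 118, 67.4 and 172 CPM to 0.0761, 0, 0.514 and 0.226 CPM. Vipr1 and the guanylyl cyclase receptor Npr1 went from 43.6 ± 15.1 to 0.298 ± 0.230 CPM and from 128 ± 27.3 to 1.12 ± 0.283 CPM. The change of Ednrb, -9.31 ± 0.47, was -10.27 without day-3 replicate 3. S1pr2, a receptor of sphingosine phosphate, rose by 1.47 ± 0.12. Among integrins and adhesion receptors 14 of 27 fell and 8 rose: Itga5 and Itgav, subunits of fibronectin and vitronectin receptors, rose by 1.65 ± 0.17 and 1.48 ± 0.11 and N-cadherin (Cdh2) by 2.65 ± 0.19, while Itga8 fell by 5.89 ± 0.31 and T-cadherin (Cdh13) by 7.41 ± 0.42. Abcc9 and Kcnj8 form a potassium channel of pericytes, and both fell: Abcc9 went from 1645, 1742, 1039 and 1432 CPM to 2.93, 9.67, 6.46 and 9.22 CPM and Kcnj8 from 37.8, 42.3, 29.5 and 36.3 CPM to 0.381, 0.338, 0.587 and 0.677 CPM. The stretch-activated channel Piezo1 rose by 1.09 ± 0.09.

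Contractile genes rose in 17 of 24 cases, with a median of 1.60, against 37.2% of all genes. Actg2, the actin of visceral muscle, was at 9.31, 7.77, 5.33 and 13.6 CPM and then at 206, 315, 278 and 322 CPM. Cnn1, a calponin, was at 4.79, 3.60, 8.04 and 8.66 CPM and then at 70.6, 57.2, 64.9 and 73.1 CPM, and the actin crosslinker Actn1 was at 189, 167, 121 and 172 CPM and then at 1432, 1616, 1473 and 1493 CPM. Each was higher in every day-3 library, by 4.94 ± 0.26, 3.42 ± 0.24 and 3.21 ± 0.14. Tagln rose by 2.80 ± 0.24. The list did not move as a whole. Desmin (Des), the intermediate filament of muscle, went from 188, 135, 148 and 179 CPM to 13.7, 20.9, 21.3 and 14.8 CPM. Myh11, the heavy chain of smooth muscle myosin, was at 112 ± 38.4 and 75.2 ± 22.4 CPM, which did not pass the test (-0.57 ± 0.26), although it was called as lower without fresh replicate 1 (-0.67), fresh replicate 3 (-0.71) or day-3 replicate 2 (-0.73). The factor Srf was at 193 ± 33.8 and 178 ± 8.82 CPM, which did not pass it either. Actg2, Cnn1 and Myh11 were all higher at day 7, at 944 ± 209, 398 ± 25.8 and 362 ± 74.9 CPM.

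Of 20 YAP and TEAD factors and targets 12 rose and 6 fell. Ankrd1, an ankyrin repeat protein of stretched muscle, was at 1.66, 6.44, 1.15 and 5.64 CPM and then at 902, 1320.1, 1067 and 1116 CPM, and Ajuba, a LIM protein of cell junctions, at 3.72, 2.90, 3.13 and 3.31 CPM and then at 122, 138, 118 and 122 CPM. The co-activators Yap1 and Wwtr1 (TAZ) fell by 0.56 ± 0.11 and 1.10 ± 0.08, a call that for Yap1 was lost on library totals (-0.05), and the factors Tead2, going from 28.6 ± 3.70 to 29.8 ± 2.0 CPM, and Tead3, going from 54.0 ± 8.07 to 46.0 ± 4.35 CPM, did not pass the test. The TEAD site (searched as GGAATG) is shown for the 2 targets, at chr19:36119945-36120064 and chr14:54577802-54577861, both on the minus strand of GRCm38.p6 (RefSeq), with matches in capitals and CATTCC as the same site on the opposite strand.
Ankrd1: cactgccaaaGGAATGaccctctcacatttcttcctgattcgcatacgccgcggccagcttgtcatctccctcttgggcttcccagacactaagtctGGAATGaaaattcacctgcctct
Ajuba: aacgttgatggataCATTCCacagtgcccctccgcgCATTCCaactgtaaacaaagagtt
Each stretch holds 2 matches. The site was found in 10 of 15 YAP and TEAD genes with a sequence (66.7%), in 8 of 18 contractile genes (44.4%) and in 13.3% of all tested genes. It was also found in 4 of 6 mesothelial markers (66.7%), in 12.7% of all genes that rose and in 14.2% of all that fell. The CArG box of SRF was found in 4 of 18 contractile genes (22.2%) and 1.37% of all.

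**Figure D4:**
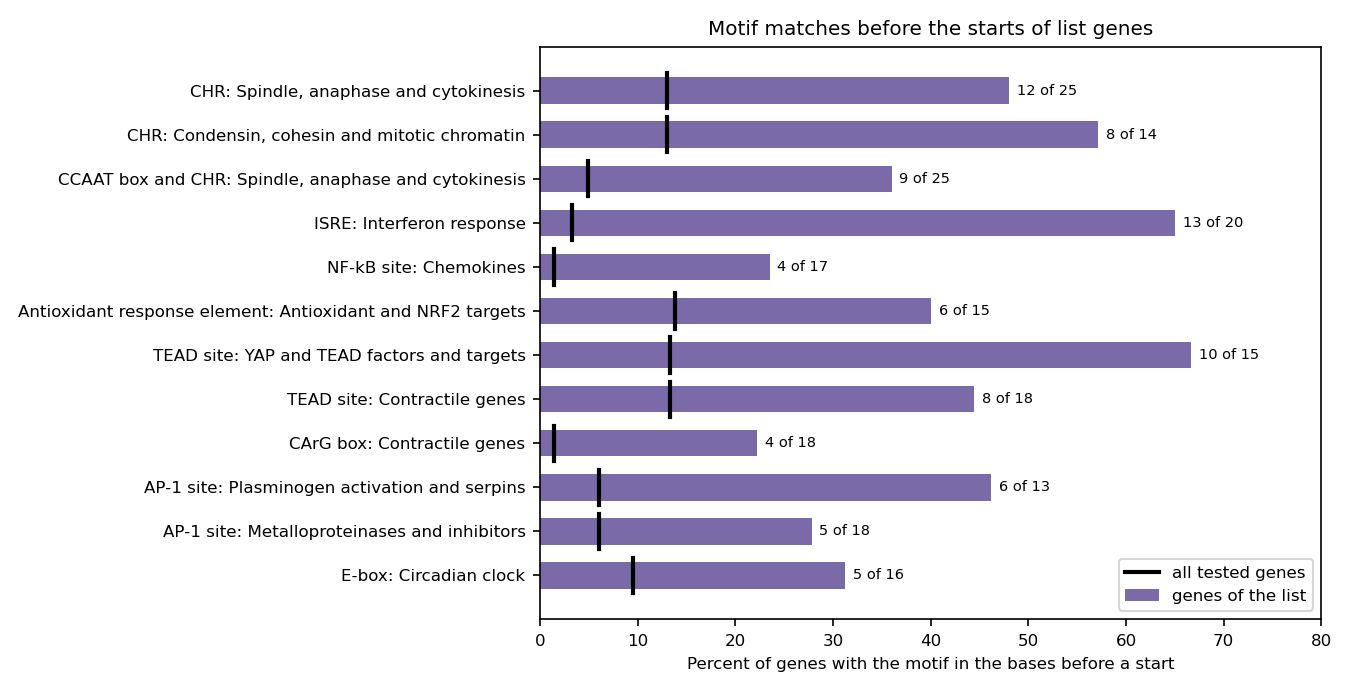
Percent of genes with a promoter sequence that hold a motif in the 250 bases before any annotated start, for 12 pairs of a motif and a gene list (bars, with counts) and over all tested genes (black marks). The longest bars are the TEAD site in YAP and TEAD genes, at 66.7%, and the ISRE in interferon response genes, at 65.0%.

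The matrix genes that define fibroblasts mostly fell. Of 31 collagens 24 fell and 4 rose, with a median of -3.60. The fibrillar collagen Col3a1 went from 9444, 9835, 9379 and 14095 CPM to 1091, 1070.3, 1085 and 1039.6 CPM. Col1a1, the main collagen of scars, went from 8965, 7634, 6979 and 10074 CPM to 4326, 5212, 4004 and 4116 CPM, a fall of 0.93 ± 0.30 (edgeR adjusted p = 0.00913) that was lost on library totals (-0.42), and it stood at 9813 ± 1308 CPM by day 7. Col14a1, which decorates fibrils, went from 5112, 5778, 4397 and 5706 CPM to 31.7, 30.0, 26.8 and 29.4 CPM, and the type VI chains Col6a5 and Col6a6 from 1062 ± 351 to 0.484 ± 0.228 CPM and from 539 ± 156 to 0.298 ± 0.170 CPM. Col12a1 and Col5a2 rose, by 1.83 ± 0.38 and 0.67 ± 0.15, and the basement membrane chain Col4a1, at 2875 ± 304 and 2917 ± 357 CPM, did not pass the test. Of 24 genes of collagen processing 10 rose and 13 fell, or 12 and 9 on library totals: the crosslinking enzyme Lox went from 662, 1068, 692 and 729.6 CPM to 3470.0, 3072, 3154 and 3125 CPM, and Adamts2, which cuts the procollagen N-terminus, from 2637 ± 403 to 64.4 ± 7.83 CPM. Proteoglycans fell in 19 of 25 cases. Dcn went from 18233, 17853, 16769 and 18099.5 CPM to 218, 259, 259 and 253 CPM, Lum from 3133, 3239, 2499 and 3366 CPM to 66.9, 99.8, 101 and 87.2 CPM and Fmod from 2147 ± 549.6 to 11.2 ± 1.60 CPM, whereas Cspg4, the NG2 proteoglycan of pericytes, rose by 3.97 ± 0.62 and Gpc1 by 2.40 ± 0.18. Of the elastic fibre genes 12 of 18 fell, with elastin (Eln) going from 868, 809.5, 1105 and 1128 CPM to 19.7, 7.65, 13.8 and 14.3 CPM and back up to 104 ± 77.0 CPM by day 7. The fibrillin Fbn1, at 1888 ± 897 and 1703 ± 141 CPM, did not pass the test. In basement membranes 12 of 16 genes fell and nephronectin (Npnt), a ligand of integrin alpha 8, rose from 17.0, 17.0, 16.5 and 25.3 CPM to 359, 584, 594 and 605 CPM, while its receptor chain Itga8 fell. Fn1, fibronectin, was at 2072, 2437, 3312 and 2244 CPM and then at 1801, 1922, 1777 and 1899.8 CPM. Its small fall of 0.44 ± 0.15 turned to 0.06 on library totals and was -0.28 and not called without fresh replicate 3. At day 7 it was at 8667 ± 1189.8 CPM.

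Enzymes that cut matrix changed in both directions. Of 27 metalloproteinases and inhibitors 8 rose and 17 fell. Adamts4 and Adamts1, aggrecanases, went from 2875, 5409.5, 3562 and 2405 CPM to 7.65, 7.99, 8.55 and 9.67 CPM and from 2794 ± 481 to 101.9 ± 7.89 CPM. The gelatinase Mmp2 went from 1829.8, 1607, 1390.1 and 1645 CPM to 119, 145, 128 and 104 CPM. Timp1, the inhibitor, went the other way, from 127, 141, 219 and 152 CPM to 2729.8, 2404, 2392 and 2641 CPM, with a rise of 3.995 ± 0.31. The membrane protease Adam19 rose from 8.51, 8.46, 10.6 and 9.12 CPM to 355, 364, 322 and 336 CPM. The collagenase Mmp13 was at 0.200, 0.316, 0 and 0 CPM in fresh cells and 14.8, 58.4, 75.4 and 66.9 CPM at day 3. The stromelysin Mmp10 was at 0.599, 0.253, 0 and 0 CPM and then at 24.2, 65.0, 82.9 and 82.8 CPM. Day-3 replicate 1 was the lowest of its group for both. Their changes of 8.54 ± 0.86 and 8.11 ± 0.71 were 9.40 without fresh replicate 2 and 9.32 without fresh replicate 1, and neither passed limma with quality weights per group. In plasminogen activation 5 of 19 genes rose and 12 fell. Plat, the tissue activator, was at 538, 525, 684 and 562 CPM and then at 23.7, 14.8, 29.6 and 26.6 CPM. It fell by 4.61 ± 0.32, without overlap, and Plaur, the receptor of the urokinase activator, rose by 1.06 ± 0.21.

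The AP-1 site (searched as TGANTCA) is shown for 3 of the risen secreted genes, in capitals, at chr9:7502257-7502316 and chr9:7272454-7272513 on the plus strand and chr7:4778207-4778256 on the minus strand of GRCm38.p6 (RefSeq).
Mmp10: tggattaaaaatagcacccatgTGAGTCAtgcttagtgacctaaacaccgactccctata
Mmp13: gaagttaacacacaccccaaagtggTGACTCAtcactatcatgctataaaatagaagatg
Il11: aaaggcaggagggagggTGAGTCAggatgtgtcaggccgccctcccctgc
The site was found in 5 of 18 metalloproteinase and inhibitor genes with a sequence (27.8%), 6 of 13 plasminogen and serpin genes (46.2%), 7 of 20 cytokine genes (35.0%) and 6.05% of all tested genes. In each of these lists more genes fell than rose. It was also found in 3 of 14 NF-kB genes (21.4%) and 4 of 20 interferon response genes (20%), lists that fell. Over all tested genes it was found in 5.38% of those that rose and 6.88% of those that fell. The cyclic AMP element (searched as TGACGTCA) was found in 3 of 27 immediate-early genes (11.1%) and 2.9% of all. These 3 AP-1 carriers rose in the interval in which the AP-1 genes Fos and Fosb fell, as given above. Other AP-1 genes had more counts left at day 3 than these 2 genes. In unscaled counts over the fresh and the day-3 libraries, Fosl1 had 10744 and 13764, Fosl2 114499 and 34555 and Jun 90743 and 7066. The day-3 libraries were deeper, so a higher unscaled count is not a rise. Fosl1 is among the 31 immediate-early and stress genes, of which 0 rose. The part of these factors in the rise of the carriers was not tested.

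Several of the genes gained in 3 days were lower again by day 7. Of genes that rose, those with at least 50 CPM at day 3 and the most negative change to day 7 were Il11, Star, Cyp1a1, Gsta3, Hvcn1, Mmp13, Spp1 and Gsta4. Il11 went to 3.37, 8.36, 4.99 and 5.66 CPM at day 7, below its fresh level of 41.6, 37.1, 24.2 and 18.4 CPM. Star, which carries cholesterol into mitochondria, was at 35.0, 66.2, 42.5 and 28 CPM in fresh cells, 111, 103, 126 and 102.3 CPM at day 3 and 1.99, 8.24, 3.88 and 4.49 CPM at day 7. The glutathione transferases Gsta3 and Gsta4 were at 35.2 ± 6.10 and 9.82 ± 2.77 CPM, then at 125 ± 6.37 and 203 ± 30.5 CPM, and at 7.68 ± 3.11 and 20.7 ± 4.56 CPM by day 7. The proton channel Hvcn1 went from 24.9 ± 6.94 to 70.2 ± 8.20 and to 5.73 ± 1.07 CPM. The secreted phosphoprotein Spp1 was at 0.599, 14.3, 0.418 and 13.5 CPM in fresh libraries, which split into a low and a high pair, and at 76.7, 66.7, 67.4 and 49.7 CPM at day 3. It was at 5.91 ± 1.45 CPM by day 7, and its rise at day 3 did not pass limma with quality weights. Cyp1a1, the standard target of the aryl hydrocarbon receptor, was at 8.11, 1.45, 0.940 and 0.872 CPM, then at 181, 217, 206 and 171 CPM and at 6.95, 17.0, 10.8 and 9.76 CPM. Its rise of 6.05 ± 0.50 was 7.45 without fresh replicate 1, and Mmp13, given above, was at 1.41, 9.13, 3.37 and 4.88 CPM by day 7. These genes were picked for their fall after day 3, which is therefore no test. Nqo1, Slc7a11, Gclm and Prdx1 also fell after day 3, to 261 ± 38.4, 51.8 ± 11.7, 121 ± 21.5 and 627 ± 96.3 CPM, as did Timp1, Sema7a and Csf1r, to 743 ± 91.1, 21.1 ± 6.51 and 8.18 ± 1.62 CPM. Of all 19 antioxidant genes 16 fell after day 3, the 10 that had risen among them, where 17.4% of all genes fell, in a comparison that shares the day-3 libraries with the first one.

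**Figure D5:**
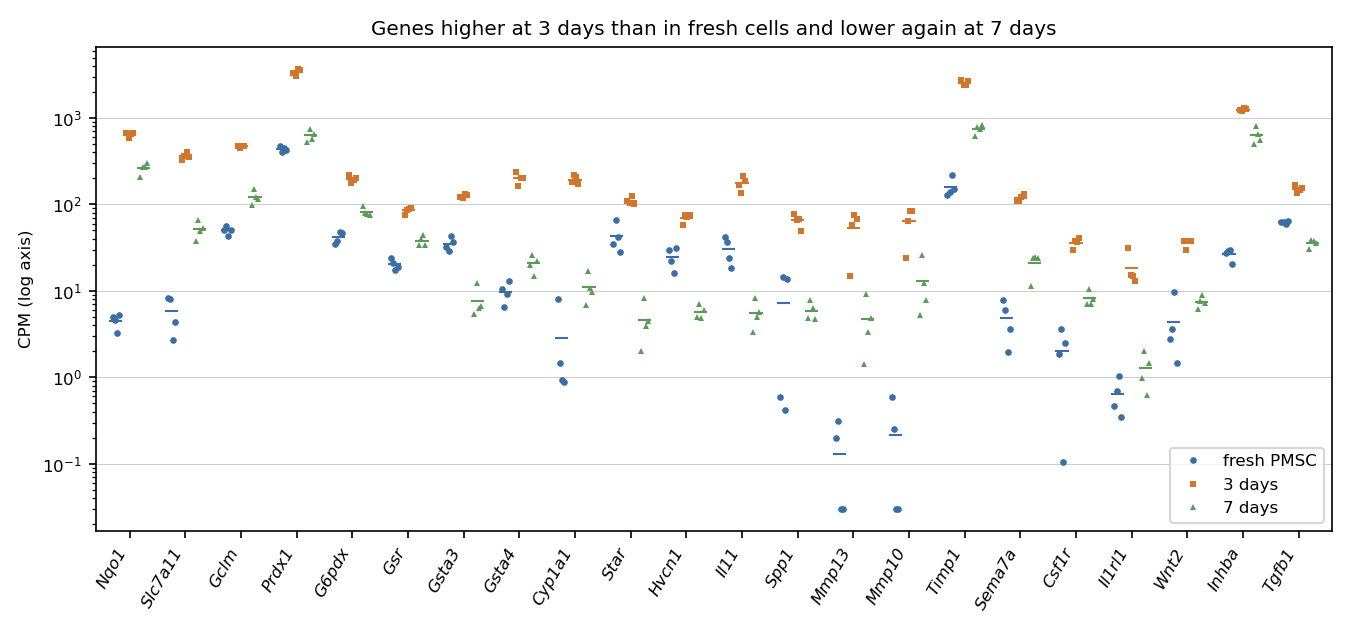
Level of 22 genes that rose by day 3 and fell by day 7, in each of the 4 fresh (circles), 4 day-3 (squares) and 4 day-7 (triangles) libraries, in CPM on a log axis with a bar at each group's mean and values under 0.03 CPM drawn at 0.03. The genes were chosen for this shape. Il11, Star, Gsta3, Hvcn1 and Tgfb1 end below their fresh level, and Nqo1 and Slc7a11 stay above it.

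Markers of other liver cells were present in fresh libraries and mostly fell by day 3. The summed level of 22 hepatocyte markers went from 1279.5 to 2312 CPM to 99.9 to 159 CPM, and 21 of the 22 fell. The cytochrome Cyp2e1 was at 860.1, 823, 582 and 993 CPM and then at 0, 0.0750, 0.183 and 0.113 CPM, while albumin (Alb) was at 65.4 ± 45.9 CPM in fresh cells. The fresh sums by replicate were 1770.6, 2312.2, 1279.5 and 1953.6 CPM, so Cyp2e1 alone made up a large part of each. How much of the sums came from hepatocytes was not tested. Of 20 endothelial markers 19 fell, 15 of them over 4-fold, and 1 rose, with a median of -5.32. With the risen marker included, the sums were 873 to 1444 and 470.0 to 594 CPM. The sinusoidal scavenger receptor Stab2 was at 13.0 ± 1.93 and then at 0.0848 ± 0.0782 CPM. All 4 tested lymphocyte markers fell, and the 15 in the files summed to 8.02 to 17.7 and then to 0.147 to 0.412 CPM. Of 12 cholangiocyte markers 10 fell, with Sox9, which stellate cells also make, going from 75.1 ± 7.81 to 12.6 ± 1.48 CPM and Muc1 from 12.7 ± 2.503 to 0.615 ± 0.325 CPM. All 14 cholangiocyte markers in the files, tested or not, summed to 78.9 to 142 and 65.8 to 92.5 CPM, which overlap. The 11 tested ones without Spp1, the 1 that rose, summed to 78.3 to 127 and 13.2 to 16.1 CPM. Of 12 tested mesothelial markers 6 fell and 1 rose, or 5 and 3 on library totals. The 13 in the files summed to 104 to 169 and then to 28.3 to 37.8 CPM. Stellate cell markers, several of which are made by pericytes and fibroblasts too, fell in 23 of 24 cases, from sums of 5558 to 8317 to 1593 to 2035 CPM. Smooth muscle and pericyte markers summed to 1571 to 2445 and then to 630.0 to 739 CPM, with Notch3 and Abcc9 falling and Actg2, Cnn1 and Cspg4 rising. Schwann cell markers summed to 630.0 to 716 and then to 67.3 to 79.0 CPM, mostly from Pmp22, a myelin gene that fibroblasts also make, while the defining glial genes S100b and Erbb3 were at 0.852 ± 1.13 and 0.211 ± 0.108 CPM in fresh cells. These sums moved with the falls of chemokine, interferon and complement genes above, and their part in those falls was not tested.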

How the data were processed

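Per the labels' protocols, the RNeasy Micro kit gave the RNA and the KAPA Stranded mRNA-Seq kit the libraries. The submitters' processing notes name FastQC, Trimmomatic, STAR 2.5.3a, RSEM 1.2.28 and the build mm10. Their settings and the gene annotation are not given in the sources used here. The authors deposited an RSEM expected count and a TPM value per gene for each library, per the file headers. The FPKM column of those files was not used.

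Expected counts, which divide reads shared between genes by estimation, were rounded to whole numbers. Of 24848 genes, 14751 passed filterByExpr and 10097 were left out. All 20 libraries were fitted with TMM scaling and edgeR's quasi-likelihood test (edgeR 4.0.16, R 4.3.3), with Benjamini-Hochberg adjustment over all tested genes and a threshold of 0.05. Groups were compared at day 3 against fresh and at day 7 against day 3. Replicate libraries differed by more than sampling noise. A count of 0 allows up to 3 counts, which is 0.052 CPM over the 4 fresh and 0.0281 CPM over the 4 day-3 libraries, and counting intervals are exact at 95% and cover counting error only. In simulated data for day 3 against fresh with 13803 tested genes, 37.3%, 59.7% and 74.2% of genes changed 1.5-, 2- and 4-fold were recovered and 6.56% of calls were false. Only 67, 67 and 66 genes were changed there, up or down at random, with the same spread in both groups. In the real data most genes were called and the fresh libraries varied more, so these rates need not hold for them. Alternatives used DESeq2 1.42.0 and limma 3.58.1, the latter on the deposited TPM and, with voom and quality weights per group, on the counts.

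The gene lists and members were chosen with earlier results of these data known. Genes to be named were the 12 largest changes each way among abundant, separated genes, a marker panel, up to 5 called members a direction and 2 uncalled members of each list, the 15 genes with the highest TPM in each group and 8 genes that rose by day 3 and fell most by day 7. Those described were picked from these after their values were seen, and some are not reported here. Promoter bases came from the RefSeq table of GRCm38.p6, which held 11463 of the tested genes (77.7%). In them 11 motifs were searched on both strands in the 250 bases before any annotated start.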

Additional observations from a re-analysis of the deposited data

Results flagged for a closer look

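In 35 of 584 groups of 4 libraries looked at (5.99%), 1 library stood far from the other 3 (a gap over Dixon's 95% critical value for 4 samples). Chance flags about 5% of such groups. The libraries involved differed: fresh replicate 2 and day-3 replicate 1 stood apart in 8 genes each, day-3 replicate 2 in 7 and fresh replicate 1 in 5, and the other 4 libraries in 1 or 2 each.

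Fresh replicate 2 was the highest of its group for Mki67 (15.4 CPM), the protease gene Tll1 (0.821 CPM), Bhlhe40 (1410.3 CPM), Zbtb16 (440.9 CPM), Ifit2 (44.2 CPM), the crosslinking enzyme gene Lox (1068 CPM), the urokinase receptor gene Plaur (110.8 CPM) and Sod2 (366 CPM). Fresh replicate 1 stood above the others for Cck (0.266 CPM), Cyp1a1 (8.11 CPM) and E2f2 (2.73 CPM), and apart for Bmp2 (208 CPM) and Tgfbr3 (519.5 CPM). Fresh replicate 3 was the highest for Cspg4 (11.7 CPM), and fresh replicate 4 for Col3a1 (14095 CPM) and Npnt (25.3 CPM).

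Day-3 replicate 1 was the lowest of its group for Npnt (359 CPM), Dcn (218 CPM), Apoe (7.69 CPM) and C4b (5.02 CPM) and stood apart for Bop1 (119.5 CPM), Mthfd2 (113 CPM), Vegfd (18.4 CPM) and the IL-33 receptor gene Il1rl1 (30.9 CPM). Day-3 replicate 2 stood apart for Gclm (449.6 CPM), Wnt2 (30.0 CPM), Thbs1 (8948 CPM), Col4a1 (3452 CPM), Itgav (609.4 CPM), Tgfbr2 (102.5 CPM) and Sod2 (46.8 CPM). Day-3 replicate 3 stood apart for B2m (185.9 CPM) and Gdf10 (5.80 CPM), and day-3 replicate 4 for Lepr (0.715 CPM) and Lrat (0.0376 CPM).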

How the results depend on the processing

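Of 14751 genes 11546 were called between day 3 and fresh cells and 5310 between day 7 and day 3. With a required change of over 2-fold (edgeR's glmTreat) the counts were 6256 and 560. Leaving out 1 library at a time gave 11279 to 11530 and 4459 to 5115, and the other alternatives stayed within 1.5 times of the first counts. On library totals 61.7% of the called genes were higher at day 3, with limma on log2(TPM + 1) 60% and on log2(TPM + 0.1) 59.7%, against 47.5%. For day 7 against day 3 the limma shares were 64.4% and 64%, against 51.7%. Of 292 named genes, 270 kept their direction and their side of the threshold on library totals and 271 with limma on either TPM scale. On those 3 settings the changes turned to 0.36, 0.23 and 0.23 for Eef1a1, 0.44, 0.32 and 0.32 for Fth1, 0.28, 0.15 and 0.15 for Pcna, 0.43, 0.31 and 0.31 for Slc2a1, 0.39, 0.27 and 0.28 for Srf and 0.48, 0.35 and 0.35 for Vim, and that of Fn1 to 0.06 on library totals. The cause was not tested. With the 8 libraries compared alone, 10581 genes were called at day 3, 5289 higher and 5292 lower, and the median change was 0.02.

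With the replicate number as a block 11460 and 5094 genes were called. The deviations of same-numbered libraries correlated at -0.038 to -0.007 between day 3 and fresh cells and at 0.002 to 0.122 between day 7 and day 3, so the numbers were not taken to pair samples. No day-3 library correlated best with the fresh library of its own number, whereas 3 of 4 day-7 libraries (replicates 1, 2 and 4) did so with the day-3 library of theirs. Of the named genes 291 of 292 kept their call under the block.

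For Hmga2, Cck, Ccnb1 and Tll1, which had few fresh counts, the size of the rise moved with the fresh library left out, as given beside each.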
